A study of Homo sapiens and Mus musculus with 12 samples.

Results

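The SPDEF peaks that share sequence with a GATA6 peak in HPAF-II cells are described here. HPAF-II is an established human line of pancreatic ductal adenocarcinoma (PDA), and per the labels the cells carried HA-tagged human SPDEF. A peak is a stretch of the genome where CUT&RUN, which cuts out the chromatin bound by an antibody and sequences it, gave a called signal. Members were selected on peak positions alone: an SPDEF peak was counted when at least 1 bp lay within a GATA6 peak, outside the mitochondrial genome, the first 1 Mb of chromosome 1 and 1 Mb around the centromere bands. Positions are in the human genome build hg19. The rule gave 1711 members among the 2775 SPDEF peaks deposited, on 1630 of the 10670 GATA6 peaks deposited.

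The tagged SPDEF was mapped in 3 libraries with an antibody against HA, and GATA6 in 3 libraries with an antibody against GATA6. Both sets of libraries came from the same HA-SPDEF cells, so no cells without the tagged factor stand beside them. The labels give neither the promoter that drives the tagged SPDEF nor its level. The series also holds 1 IgG and 1 H3K4me3 library of these cells, whose peaks were not analysed here, and 4 mouse libraries. Each target has 1 list of positions, with no score and no value per replicate, so no difference below could be set against a spread between cultures, and depth is unknown.

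SPDEF is an ETS-family transcription factor of goblet and other mucus-secreting cells. GATA6 is a zinc-finger factor of endoderm whose expression marks the classical, better differentiated subtype of PDA. Overlap of peaks places both antibodies' signals on the same stretch of DNA in the same cell population. It does not show that the factors touch or sit on the same DNA molecule.

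Before regions were left out, 1796 SPDEF peaks overlapped a GATA6 peak. Of these, 85 were removed, with 1 on the mitochondrial genome, 2 in the first 1 Mb of chromosome 1 and 82 near a centromere. Of the 2603 SPDEF peaks kept, the 1711 members made up 65.7% (95% Wilson interval 63.9 to 67.5), and the other 892 had no overlapping GATA6 peak. Of the 10447 GATA6 peaks kept, the 1630 carriers made up 15.6% (14.9 to 16.3). These shares are what the rule selected and are given as a description. Intervals here and below cover counting error only.

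Most shared SPDEF peaks lay wholly within their GATA6 peak. Of the 1711, 1037 (60.6%, 95% Wilson interval 58.3 to 62.9) were enclosed by a wider GATA6 peak, 199 (11.6%) enclosed a narrower GATA6 peak, and 3 had identical edges. The remainder were staggered, with 240 reaching past the GATA6 peak towards higher coordinates and 232 towards lower coordinates. Staggering was about equally frequent on both sides. Among the enclosed peaks the median width was 243 bp for SPDEF and 778 bp for GATA6. In the reverse arrangement, where SPDEF enclosed GATA6, it was 425 bp for SPDEF and 251 bp for GATA6.

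The overlap was seldom marginal. The median stretch in common was 244 bp (quartiles 200 and 343 bp). It covered at least 50% of the SPDEF peak in 1557 members (91.0%, 89.5 to 92.3) and the whole of it in 1040 (60.8%, 58.4 to 63.1). From the GATA6 side the median cover was 53.5% (quartiles 27.5 and 86.4%). Over all members, the sequence in common came to 509 kb, or 84.1% of the 605 kb of shared SPDEF peaks and 46.9% of the 1084 kb of carriers. Under 10 bp were in common in 14 members (0.818%, 0.488 to 1.37).

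At the limit of the rule, the smallest overlaps belonged to an SPDEF peak of 1 bp in Xq28 (chrX:153597558-153597558) and to one of 231 bp in 2p21 (chr2:47082888-47083118) that met the edge of a GATA6 peak of 39 bp; each had 1 bp in common. Peaks of 2 bp in 12q13.11 and 8q12.3 and one of 296 bp in 1p13.3 had 2 bp in common. Just outside, the nearest SPDEF peak without an overlap lay 1 bp from a GATA6 peak in 15q24.2 (chr15:75746595-75746629), and the next lay 12, 13, 16 and 19 bp away in 10q24.31, 8q22.1, 15q22.2 and 20q11.23. Within 100 bp of a GATA6 peak lay 26 of the 892 other SPDEF peaks, and within 1 kb 167. Their median distance was 37408.5 bp, so few peaks stood near the limit on either side.

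The median width of SPDEF peaks on a GATA6 peak was 282 bp (quartiles 217 and 410 bp), against 235.5 bp (189 and 334.25 bp) for the other SPDEF peaks. For carriers it was 499 bp (304 and 899.25 bp), against 326 bp (228 and 591 bp) for the other GATA6 peaks. A rule of 1 bp favours wide peaks by construction, so these widths are descriptions. Among the members 63 were narrower than 100 bp, and among the other SPDEF peaks 69.

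The members with the most sequence in common are given by position, since each is a place where the lists coincide over a long stretch. In 11p15.4 the SPDEF peak of 2095 bp (chr11:10529451-10531545) and the GATA6 peak of 2090 bp had 2090 bp in common. In 20q11.23 an SPDEF peak of 1358 bp (chr20:34673008-34674365) lay entirely within a GATA6 peak of 2463 bp. In 5q14.1 an SPDEF peak of 1525 bp (chr5:79946339-79947863) enclosed a GATA6 peak of 1292 bp. Those in 7q22.3, 8q24.12, 1q32.1, 12q13.13, 20q13.13, 7q34 and 12p12.1 had 1282, 1265, 1226, 1188, 1144, 1140 and 1135 bp in common. Over 90% of the GATA6 peak was covered in 5 of these 10, those in 11p15.4, 5q14.1, 8q24.12, 1q32.1 and 20q13.13. The IgG control was not analysed here, so whether these places, 11p15.4 and 5q14.1 among them, and those with matching edges also give signal without either factor was not tested.

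The widest shared SPDEF peaks were not always well matched. In 14q32.33 an SPDEF peak of 2061 bp (chr14:105146716-105148776) had 802 bp in common with a GATA6 peak of 829 bp, or 38.9% of the SPDEF peak. In 20q13.12 an SPDEF peak of 1575 bp had 459 bp in common with a GATA6 peak of 658 bp. In 2q13 a GATA6 peak of 377 bp lay within an SPDEF peak of 1533 bp (chr2:113401744-113403276), and in 5q31.2 one of 582 bp within an SPDEF peak of 1498 bp. At these places the SPDEF peak extended well beyond the GATA6 peak.

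Edges matched in a minority. Both edges of the SPDEF peak were within 10 bp of those of its GATA6 peak in 42 members (2.45%, 1.82 to 3.30), 1 edge was in 288 (16.8%, 15.1 to 18.7) and neither in 1381 (80.7%, 78.8 to 82.5). After 11p15.4, the widest with matching edges were in 3q11.2 (844 bp for SPDEF and 838 bp for GATA6), 5q31.1 (819 and 822 bp), 5q13.2 (759 and 771 bp) and 4q13.2 (745 and 747 bp). Identical peaks stood in 1q24.2 (270 bp), 3p21.2 (213 bp) and 5q31.1 (548 bp). The pair in 5q31.1 belonged to a group of 4 members within 4394 bp (chr5:134259485-134263878).

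Measured between midpoints, SPDEF lay on either side of GATA6 equally often. The midpoint of the SPDEF peak was at higher coordinates in 859 members (50.2%, 47.8 to 52.6), at lower coordinates in 845 (49.4%, 47.0 to 51.8) and at the same position in 7. The median distance was 89.5 bp (95% interval from order statistics 82.5 to 97.5; quartiles 28.0 and 200 bp). Midpoints were at most 25 bp apart in 387 members (22.6%), at most 100 bp in 908 (53.1%) and at most 500 bp in 1651 (96.5%). Overlapping peaks have midpoints less far apart than the mean of both widths, so short distances follow in part from the rule. The GATA6 midpoint fell within the SPDEF peak in 1139 members (66.6%, 64.3 to 68.8), and the SPDEF midpoint within the GATA6 peak in 1583 (92.5%, 91.2 to 93.7).

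**Figure D1:**
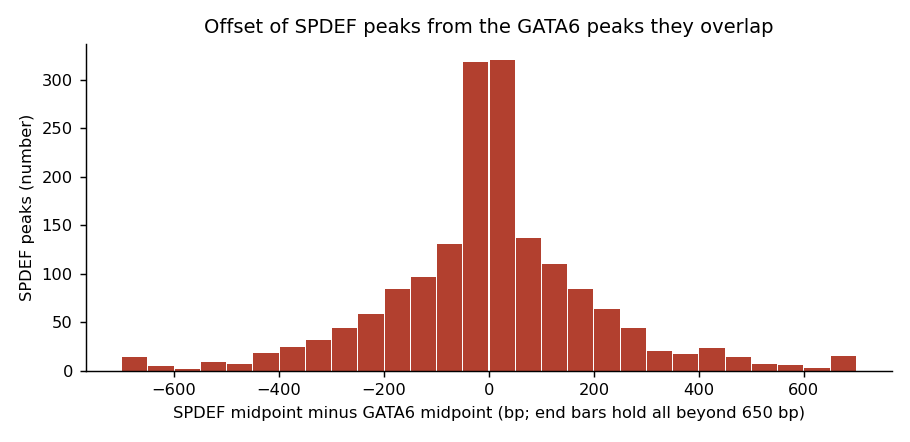
Number of shared SPDEF peaks (vertical axis) by the distance of their midpoint from the GATA6 midpoint in bp (horizontal axis, bars of 50 bp, with the end bars holding all that lie farther out). The bars on either side of 0 hold 318 and 321 peaks, and the next hold 131 and 137, so the distribution is nearly symmetrical. The overlap rule bounds the distance by the widths of the peaks, so closeness to 0 follows in part from it.

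The distance differed with how wide the GATA6 peak was. Each width class here includes its lower bound and ends below its upper bound. Where the GATA6 peak was under 300 bp wide the median distance between midpoints was 33.5 bp (377 members), and where it was 300 to 500 bp wide it was 38.5 bp (414). It was 131.75 bp for GATA6 peaks of 500 to 800 bp (338 members), 186 bp for 800 to 1200 bp (311) and 267.5 bp for 1200 bp or more (271). The GATA6 midpoint lay within the SPDEF peak in 89.9% and 90.3% of members in the lowest classes, and in 56.5%, 41.5% and 39.1% in the wider ones. The step lay between the classes below and above 500 bp, in which the enclosed SPDEF peaks had median widths of 238 and 250 bp. An enclosed SPDEF peak that fills most of its GATA6 peak must hold the GATA6 midpoint. Such a step therefore follows at least in part from the widths by construction. These width classes were chosen after the values were seen.

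A wide GATA6 peak leaves more room, so the place of the 1037 enclosed SPDEF peaks was also expressed along that room, the positions an SPDEF peak of its width could take. Cut into 5 equal parts, from lower to higher coordinates, the room held 230, 193, 209, 191 and 214 peaks. The shares ran from 18.4% to 22.2%, near the 20% that an even spread gives. Over all widths, enclosed SPDEF peaks were thus found neither mainly at the centre nor mainly at the edges. A median of 52.3% of the way from the centre to the end of the room says the same, since an even spread gives 50%.

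By width class the picture was not even. In GATA6 peaks of 500 to 800 bp the middle part held 20 of 218 enclosed SPDEF peaks (9.17%, 95% Wilson interval 6.02 to 13.7), and the outermost parts on both sides held 56.9% (50.2 to 63.3), where an even spread gives 40%. In GATA6 peaks of 1200 bp or more the middle part held 73 of 245 (29.8%, 24.4 to 35.8) and the outermost parts 35.5% (29.8 to 41.7). In the classes between and below, the middle part held 22.7% (18 to 28.2) at 800 to 1200 bp, 18.3% (13.8 to 23.9) at 300 to 500 bp and 17.8% (16 of 90) under 300 bp. Enclosed SPDEF peaks were therefore more often off-centre in GATA6 peaks of about 500 to 800 bp and more often central in the widest. In GATA6 peaks under 300 bp the enclosed SPDEF midpoint was at a median of 13.5 bp from the centre, which leaves little room to divide. Their parts were uneven too, with 32, 17, 16, 10 and 15 peaks.

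**Figure D2:**
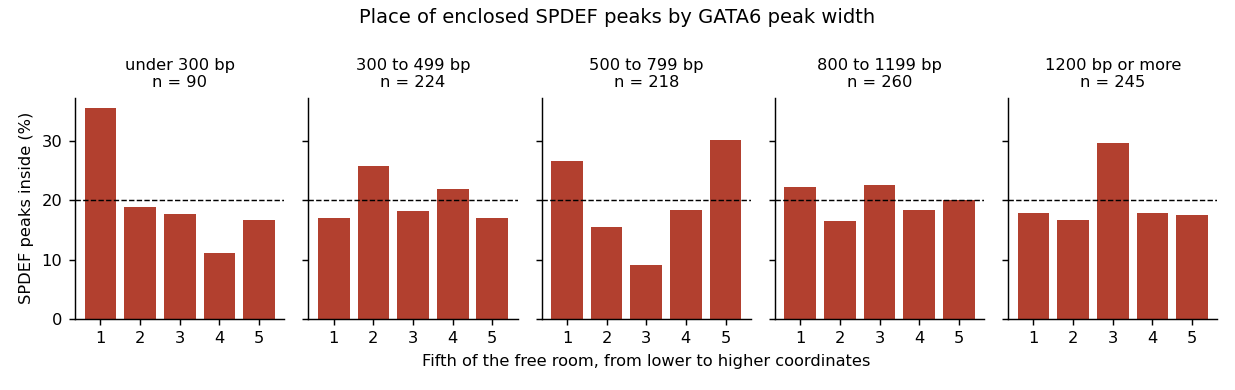
Share of enclosed SPDEF peaks (vertical axis, %) in each of 5 equal parts of the room left by the GATA6 peak (horizontal axis), in 5 panels by GATA6 width, with the 20% of an even spread as a dashed line. The middle bar is lowest for GATA6 peaks of 500 to 800 bp, at 9.17%, and highest for those of 1200 bp or more, at 29.8%.

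Almost every carrier held a single SPDEF peak. Of the 1630, 1528 (93.7%) had 1, 95 (5.83%) had 2, 5 had 3 and 2 had 4. The 102 carriers with 2 or more (6.26%, 5.18 to 7.54) held 213 members, or 12.4% (11 to 14.1) of the total. Carriers of 1 SPDEF peak had a median width of 456 bp, carriers of 2 had 1140 bp, and carriers of 3 had 2463 bp. By width, 2 or more SPDEF peaks were found on 0.504% of carriers under 300 bp, 0.476% of those of 300 to 500 bp, 4.32% of 500 to 800 bp, 36 of 275 of 800 to 1200 bp and 22.4% (17.4 to 28.5) of 1200 bp or more. Per kb of carrier the number was 4.45, 2.62, 1.62, 1.15 and 0.767 from the narrowest class to the widest, a decrease that follows in part from every carrier holding at least 1.

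Wide GATA6 peaks were also more often carriers. SPDEF was found on 9.15% (8.33 to 10.0) of the 4339 GATA6 peaks under 300 bp, 15.9% (14.6 to 17.4) of those of 300 to 500 bp and 19% (17.2 to 20.9) of those of 500 to 800 bp. The share was 22.4% (20.1 to 24.8) at 800 to 1200 bp and 39.9% (35.9 to 44.1) among the 536 of 1200 bp or more. A 1 bp rule selects wide peaks more readily by construction.

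Where SPDEF peaks stood side by side on 1 GATA6 peak, the midpoints were mostly less than 1 kb apart. Over 111 neighbouring pairs the median distance between midpoints was 554 bp (quartiles 438 and 692 bp), and 85 pairs (76.6%, 67.9 to 83.5) were 300 to 800 bp apart. The median gap between their edges was 230 bp (161 and 343 bp). Of the 95 carriers with 2 SPDEF peaks, 76 (80.0%, 70.9 to 86.8) had one on each side of the GATA6 midpoint. The width of a carrier sets an upper bound on these distances. Separate SPDEF peaks that must both overlap the same carrier also tend to fall on opposite sides of its midpoint by construction. The share of 80.0% is therefore a description.

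The carriers with the most SPDEF peaks included the widest of the GATA6 peaks kept, 8036 bp in 12q21.1 (chr12:71551319-71559354). It held 4 SPDEF peaks of 186, 216, 471 and 804 bp, with midpoints at -2876, 1619, 2251.5 and 3233 bp from its own. Thus 3 of the 4 lay at higher coordinates than its midpoint, and SPDEF covered 20.9% of the GATA6 peak. The band holds TSPAN8, a tetraspanin of the cell surface and a classical-subtype gene. The other carrier of 4 lay in 8q24.21 (chr8:128226880-128229168), where 4 SPDEF peaks covered 49.2% of 2289 bp.

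Carriers of 3 lay in 12q15, 1q21.3, 20q11.23, 11p13 and 11q13.1. Of these, 1q21.3 and 11q13.1 hold genes of the basal-like PDA list, S100A2, SPRR1B and SPRR3 in the former and CST6 in the latter. In 12q15, the band of LYZ, which encodes the secreted enzyme lysozyme, SPDEF peaks of 178, 856 and 303 bp stood on a GATA6 peak of 3274 bp (chr12:69723850-69727123). In 20q11.23 SPDEF covered 73.8% of the GATA6 peak (chr20:34672983-34675445), the highest cover of these 10 carriers. In 11p13, the band of EHF, an epithelial ETS factor related to SPDEF, peaks of 291, 13 and 95 bp stood on 1534 bp (chr11:34621326-34622859). In 11q13.1 peaks of 271, 282 and 207 bp were nearly evenly spaced on 1274 bp (chr11:64008141-64009414), with 510 and 478 bp between midpoints. The remaining carriers of the 10 held 2 each, in 12q24.23, 12q13.13 and 3q25.2. The pair in 12q13.13, of 973 and 1017 bp (chr12:53319119-53320091 and chr12:53320253-53321269), covered 70.9% of a GATA6 peak of 2763 bp. That band holds the simple-epithelial keratin genes KRT7, KRT8 and KRT18. It also holds KRT6A and KRT6C, which like KRT7 are on the basal-like PDA list.

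**Figure D3:**
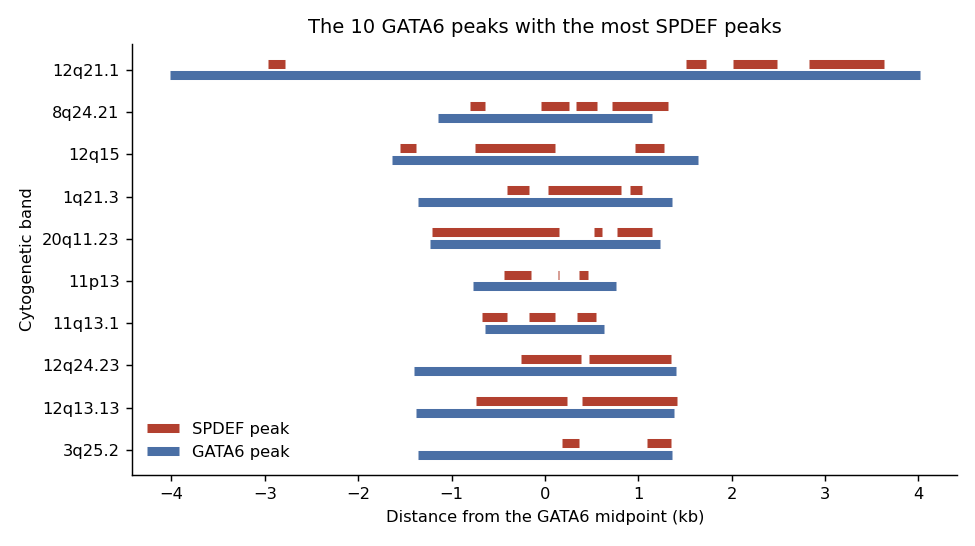
SPDEF peaks (upper line of each pair) above the GATA6 peak they overlap (lower line), for the 10 GATA6 peaks with the most SPDEF peaks, by distance from the GATA6 midpoint in kb. The GATA6 peak of 12q21.1 spans 8036 bp and has 3 of its 4 SPDEF peaks at higher coordinates; in 20q11.23 and 12q13.13 SPDEF covers 73.8% and 70.9% of the GATA6 peak.

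The reverse case was rare. An SPDEF peak touched 2 GATA6 peaks in 26 members and 3 in 2 members, together 1.64% (1.13 to 2.35). These 28 had a median width of 740 bp. Those with 3 lay in 12q13.3 (chr12:57481143-57482353, over GATA6 peaks of 168, 241 and 349 bp) and in 14q11.2 (chr14:23563955-23565086, over 7, 368 and 406 bp).

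Along the genome most shared peaks stood alone. Joined at gaps of up to 10 kb, 1274 members had no other within reach and 437 (25.5%, 23.5 to 27.7) fell into 197 clusters, of which 30 had 3 or more members. The clusters of 5 lay in 12p11.23 (12184 bp, chr12:27484521-27496704), 20q11.23 (9054 bp, chr20:34670651-34679704) and 8q24.21 (4576 bp, chr8:128227219-128231794). In 12p11.23 the 5 members stood on 5 separate GATA6 peaks, whereas in 8q24.21 they stood on 2. Clusters of 4 lay in 11q23.3, 12q24.31, 12q21.33, 12q21.1, 5q31.1, 1q21.3 and 11q13.1, and the one in 11q13.1 spanned 1701 bp (chr11:64008100-64009800). These 10 clusters held 3 SPDEF peaks without a GATA6 peak between their members, 1 each in 11q23.3, 12q24.31 and 12q21.33.

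The GATA6 surroundings of carriers differed little from those of other GATA6 peaks when all widths were pooled. Another GATA6 peak lay within 10 kb of 44.7% (42.3 to 47.1) of carriers and 42.8% (41.8 to 43.9) of other GATA6 peaks, a difference of 1.81 percentage points (-0.799 to 4.45). Within 50 kb the shares were 68.3% and 65.8%, and the interval of the difference, 0.0386 to 4.97, lay just above 0. Among GATA6 peaks in the widest quartile (643 bp or more) the shares were 51.5% (47.7 to 55.4) for carriers and 43.6% (41.4 to 45.8) for the others. In the second quartile (236 to 346 bp) they were 33.8% (28.9 to 39.1) and 39.9% (37.9 to 42.0). For SPDEF, another SPDEF peak lay within 10 kb of 31.3% (29.1 to 33.5) of shared peaks and 29.7% (26.8 to 32.8) of the others.

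Shared peaks were spread over chromosomes 1 to 22 and X at 0.564 per Mb. The highest densities were 1.74 per Mb on chromosome 12 (233 members), 1.67 on chromosome 20 (105) and 1.49 on chromosome 14 (160). These 3 chromosomes make up 10.0% of the length and held 29.1% (27.0 to 31.3) of shared SPDEF peaks, against 26.7% (23.9 to 29.7) of other SPDEF peaks. They held 29% (26.8 to 31.2) of carriers, against 16.3% (15.6 to 17.1) of other GATA6 peaks. The intervals of shared and other SPDEF peaks overlapped, so no difference between them could be read there. All GATA6 peaks were densest on the same chromosomes, at 6.96 per Mb on chromosome 12, 5.78 on chromosome 20 and 5.75 on chromosome 14, against 1.05 on chromosome 13. The lowest densities were 0.0608 on chromosome 13 (7 members), 0.102 on chromosome 18 (8), and 0.115 for the 22 members of chromosome 4.

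The share of SPDEF peaks that lay on a GATA6 peak varied less. It was highest on chromosome 21, where 18 of 20 were shared (90%, 69.9 to 97.2), and was 77.5% (70.2 to 83.4) on chromosome 8. Chromosome 3 followed with 76.0% (69.5 to 81.5). Among chromosomes with over 100 SPDEF peaks it was lowest on chromosomes 7 (58.3%, 50.3 to 65.8) and 1 (59.3%, 53.0 to 65.3). The intervals of chromosomes 8 and 3 lay above those of chromosomes 7 and 1. These were picked as extremes after the values were seen, and their difference was not tested. No such order could be read for chromosomes 13, 15, 18 and 22, which had 13 to 24 SPDEF peaks each.

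The shared share went down with gene density. Each peak was given the number of protein-coding genes per Mb of its cytogenetic band, the regions into which stained chromosomes are divided. In bands with under 5 genes per Mb, 510 of 664 SPDEF peaks were shared (76.8%, 73.4 to 79.9). The share was 67.2% (64.0 to 70.2) at 5 to 10 genes per Mb, 59.1% (55.3 to 62.7) at 10 to 20 and 55.2% (50.2 to 60.0) at 20 or more, where 219 of 397 were shared. The share of GATA6 peaks that were carriers ran the other way, at 11.4% (10.5 to 12.4), 15.1% (14.0 to 16.3), 21.4% (19.5 to 23.3) and 26.5% (23.6 to 29.6). In number per Mb, shared SPDEF peaks stood at 0.318, 0.714, 0.890 and 1.34 in these classes, other SPDEF peaks at 0.0959, 0.348, 0.616 and 1.09, and GATA6 peaks at 2.6, 4.45, 4.06 and 4.93. Lengths here and in the other densities per Mb include the regions that the rule left out. Densities of bands near centromeres are therefore understated.

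Both kinds of SPDEF peak were therefore denser in gene-dense bands, and the kind without GATA6 more steeply. The median gene density of the band was 6.92 per Mb for shared peaks and 10.2 per Mb for other SPDEF peaks. For carriers it was 6.92 per Mb, and for other GATA6 peaks 5.50 per Mb. Giemsa staining, which leaves gene-rich bands pale, gave a similar order. From pale to dark, 63.8% (61.4 to 66.2), 60.7%, 67.5%, 73.2% and 74.5% (68.0 to 80.1) of SPDEF peaks were shared, so that the palest class was not the lowest. Pale bands held 56.7% (54.3 to 59.0) of shared peaks, 61.7% (58.4 to 64.8) of other SPDEF peaks and 45.8% of the length.

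**Figure D4:**
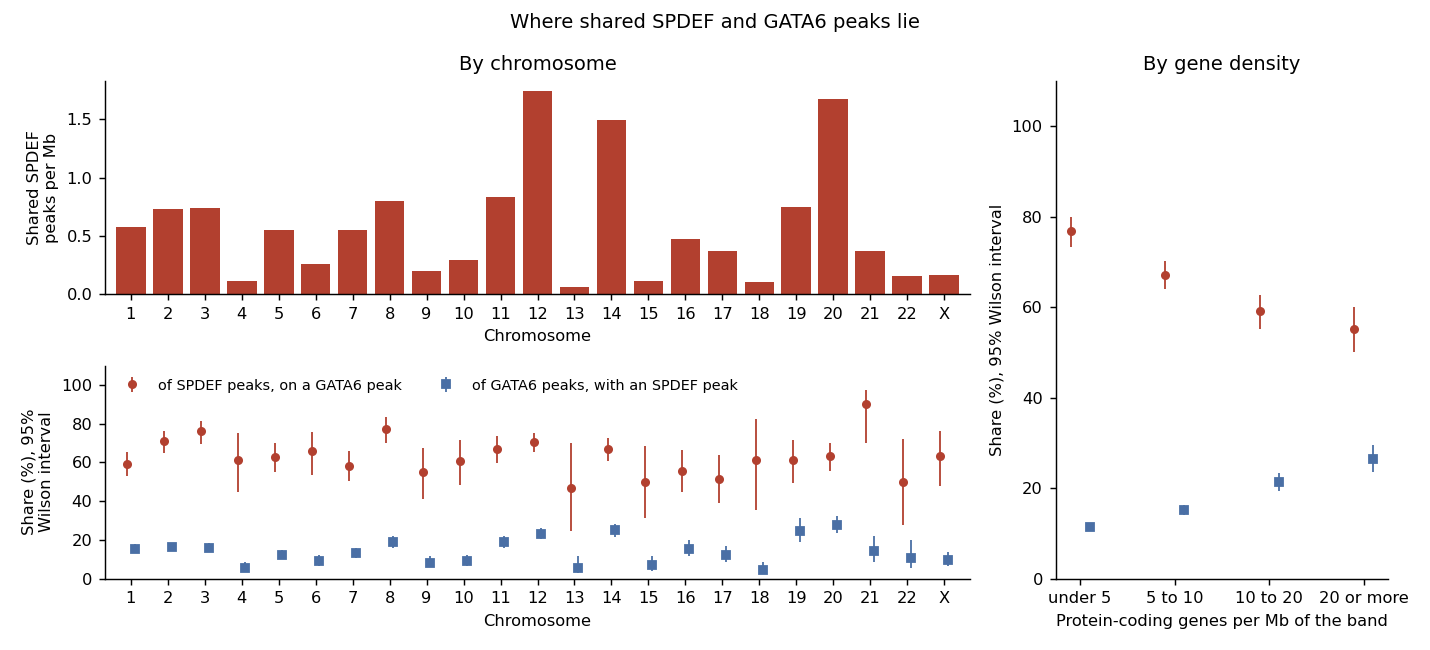
Left: shared SPDEF peaks per Mb by chromosome (top), and the share of SPDEF peaks that lie on a GATA6 peak and of GATA6 peaks with an SPDEF peak (bottom, %). Right: the same shares by protein-coding genes per Mb of the band. Points are shares and lines their 95% Wilson intervals; in the gene-densest bands the first share is 55.2% and the second 26.5%, against 76.8% and 11.4% in the gene-poorest.

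Shared peaks fell in 477 of 851 bands, and 125 bands with at least 5 members held 60.4% (58.1 to 62.7) of them. The bands with the most were 14q11.2 and 12q24.31 with 20 each, then 12q21.2, 3q29 and 7q22.1 with 18 each and 12q13.13 with 17. Then came 2q33.1 with 15 and 11q13.1, 12q21.33 and 8q24.21 with 14 each. These bands differed in how many of their SPDEF peaks were shared. In the gene-poor 12q21.2, 12q21.33 and 8q24.21, with 16, 12 and 6 protein-coding genes, 18 of 19, 14 of 15 and 14 of 15 SPDEF peaks were shared. In the gene-rich 12q13.13 and 14q11.2, with 90 and 110 genes, 17 of 34 (50%) and 20 of 38 (52.6%) were shared. Other gene-rich bands had higher shares, with 18 of 29 (62.1%) in 7q22.1 (119 genes), 20 of 30 (66.7%) in 12q24.31 (81 genes) and 14 of 20 (70%) in 11q13.1 (99 genes), so single bands did not all follow the trend over density classes. Per Mb, the densest bands with at least 5 members were 12p11.23 (8.46), 14q22.2 (7.14), 11q13.1 (5.60), 11q12.3 (5.29), 12q13.13 (5.00), 1q22 (4.67) and 14q32.31 (4.44), followed by 3q27.2 and 20q13.31 (4.0 each) and 12q21.2 (3.91). All 9 SPDEF peaks of 11q12.3, which holds 52 genes in 1.7 Mb, and all 6 of 20q13.31 were shared.

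The genes of the classical programme were located by band, since the gene table used is of another genome build than the peaks. A band holds many genes, so its peaks cannot be tied to a single one. Among mucin bands, 3q29, with the membrane mucin genes MUC4 and MUC20, held 18 shared and 5 other SPDEF peaks. Band 7q22.1, with a group of membrane mucin genes that includes MUC17, held 18 shared and 11 others. In 1q22, with MUC1, there were 7 shared and 6 others, and in 3q21.2, with MUC13, 3 shared and 0 others. The gel-forming mucin band 11p15.5, with MUC2, MUC5AC, MUC5B and MUC6, held 1 shared peak of 314 bp (chr11:1061317-1061630) and 2 others. Per Mb these membrane mucin bands held 3.15, 3.10, 4.67 and 1.5 shared peaks, against 0.357 in the gel-forming mucin band. The other membrane mucin bands held 6 in the 1.7 Mb of 6p21.33 (MUC21), 3 in the 7.0 Mb of 19p13.2 (MUC16) and 0 in the 1.1 Mb of 11p14.2 (MUC15).

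In 21q22.3, the band of the trefoil factors TFF1, TFF2 and TFF3, which are secreted with mucus, all 8 SPDEF peaks were shared and lay on 6 GATA6 peaks. Pairs of SPDEF peaks stood there on GATA6 peaks of 1084 bp (chr21:43098128-43099211) and 736 bp (chr21:43352403-43353138). In 7p21.1, which holds AGR3 and AGR2, with AGR2 encoding an enzyme for mucin folding, 5 of 7 were shared. A pair of 302 and 279 bp (chr7:16844259-16844560 and chr7:16844619-16844897) stood on 1 GATA6 peak of 1076 bp, with offsets of -351 and -2.5 bp. The 5 members of 7p21.1 were all enclosed by GATA6 peaks of 1076 to 1669 bp, beside 43 GATA6 peaks of the band without SPDEF.

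The bands of the factors themselves held few. In 6p21.31, with SPDEF, 2 of 3 SPDEF peaks were shared, of 245 and 209 bp, on GATA6 peaks of 231 and 170 bp. In 18q11.2, with GATA6, both SPDEF peaks kept were shared, of 296 and 216 bp, on GATA6 peaks of 1218 and 1036 bp, beside 20 GATA6 peaks without SPDEF. This band borders the centromere bands, and its part within 1 Mb of them was left out by the rule. The counts of 18q11.2 therefore do not cover the whole band and may miss the GATA6 gene itself. In 17q21.2, with KRT19, all 4 were shared, and in 19q13.2, with the surface glycoprotein genes CEACAM5 and CEACAM6, 7 of 10. Band 17q21.2 also holds KRT15, KRT17 and TNS4 of the basal-like PDA list. In 12q13.13 the 17 shared peaks were 104 to 1533 bp wide, and the 3 widest lay at chr12:53763889-53765421, chr12:53773239-53774377 and chr12:53320253-53321269.

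**Figure D5:**
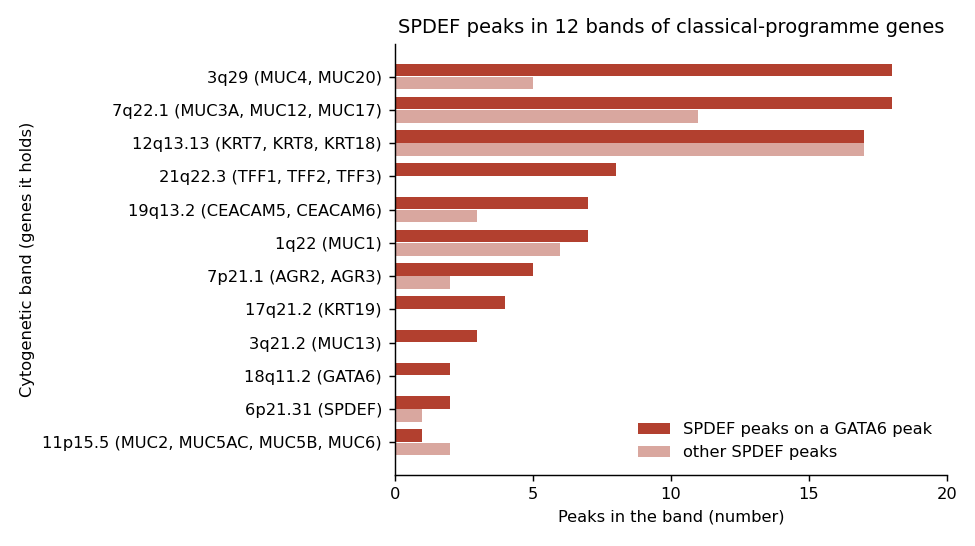
Number of SPDEF peaks on a GATA6 peak (dark bars) and of other SPDEF peaks (light bars) in 12 cytogenetic bands, named with classical-programme genes they hold. Bands 12q13.13 and 17q21.2 also hold genes of the basal-like PDA list. Bands 3q29 and 7q22.1 have 18 shared peaks each, 12q13.13 has 17 of each kind, and 21q22.3, 17q21.2, 3q21.2 and 18q11.2 have shared peaks only.

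Over whole gene lists, shared peaks were denser per Mb than in the genome. Per gene the lists stood closer to the genome, with the transcription factor bands farthest above it. Bands of 14 mucin genes held 2.03 shared peaks per Mb, with members in 7 of 8 bands, against 0.564 over all bands. The value was 1.61 for simple keratin and adhesion genes, 1.35 for basal-like PDA genes, 1.21 for trefoil, anterior gradient and secretory genes and 1.20 for classical PDA genes. Endoderm and epithelial transcription factor bands held 97 shared peaks in 84.8 Mb. Per 100 protein-coding genes, the mucin bands held 9.91, the keratin and adhesion bands 9.75, the classical bands 9.58, the basal-like bands 9.0, the secretory bands 7.96 and the transcription factor bands 11.7, against 8.57 over all bands. The share of SPDEF peaks that were shared ranged from 63.2% to 70.3% over the lists, against 65.7% over all bands. The lists were written with earlier results of these data known and no test was made, so nothing particular to a list follows.

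Among transcription factor genes, HNF4A, which drives hepatic and pancreatic endoderm programmes, lies in a band with 14 shared peaks (20q13.12). The bands of the epithelial ETS factors ELF3 (1q32.1) and EHF (11p13) held 9 and 6, those of the grainyhead-like factors GRHL1 (2p25.1) and GRHL2 (8q22.3) 8 and 7, and that of the pioneer factor gene FOXA1 (14q21.1) 2. The bands of KLF4 (9q31.2) and KLF5 (13q22.1) held no SPDEF peak of either kind. The bands of classical genes held 102 shared and 50 other SPDEF peaks, with a shared peak in 18 of 19 bands, and they differed widely among themselves. The band of TSPAN8 (12q21.1) had 9 shared and 0 other SPDEF peaks, and that of LYZ (12q15) 11 shared and 3 others. The band of CDH17 (8q22.1) had 5 of each, and others outnumbered shared peaks in the bands of VSIG2 (11q24.2, 1 shared and 5 others), MYO1A (12q13.3, 3 and 7), BTNL8 (5q35.3, 3 and 6) and TM4SF5 (17p13.2, 1 and 2). The band of PLA2G10 (16p13.12) had 0 of either. The bands of basal-like genes held 96 shared and 53 others, with a shared peak in 12 of 17 bands. Over the whole genome 477 of 851 bands held a shared peak, and the difference between the lists was not tested. The band of S100A2, SPRR1B and SPRR3 (1q21.3) had 11 shared and 12 others, and that of SLC2A1 (1p34.2) 0 shared and 3 others. Those of SERPINB3 and SERPINB4 (18q21.33), FGFBP1 (4p15.32), SCEL (13q22.3) and CTSV (9q22.33) had 0 SPDEF peaks of either kind.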

How the data were processed

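CUT&RUN libraries of HPAF-II cells with HA-tagged SPDEF were used as the deposited peak lists, 1 each for SPDEF and GATA6, with chromosome, start and end per peak. Bowtie2 2.4.4, MACS2 2.2.7.1, SAMtools 1.14 and deepTools are named, without roles, in the submitters' processing notes, with the build hg19. For how libraries were combined, the control and the threshold, the labels give nothing. The lists were tied to their targets by file name. Of their peaks, 0 ended past an hg19 chromosome, against 18 SPDEF and 29 GATA6 peaks past an hg38 chromosome.

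A member overlapping several GATA6 peaks was paired with the one sharing most bp. Bands came from circlize 0.4.16 (R 4.3.3); the midpoint set a peak's band. Protein-coding genes were those of RefSeq GRCh38.p14, placed in bands of that build and joined to hg19 bands by name. Of 862 bands, 92 differ by over 10% in length between the builds, 0 of them bands named by the rule below and 3 of them bands of list genes (19p13.2, 1p12 and 8q21.13), so a gene near a band edge can be misplaced. All 110 gene list entries matched by symbol. No genome of build hg19 was at hand, so no peak sequence is printed and no motif was searched. No p-value was computed: peaks are not replicates. Shares carry 95% Wilson intervals. By that rule, named places are the 10 with the most shared bp, the 10 widest, the 10 carriers and clusters with the most members, the 10 bands with the most members or most per Mb, the closest on either side of the limit and 12 bands of the classical programme. The members, lists and bands were chosen with earlier results of these data known, and width and gene density classes after seeing the values. Python 3.11.15, numpy 2.4.6, pandas 2.3.3, scipy 1.17.1 and matplotlib 3.10.9 were used, and the overlap functions were tested on simulated data. Depth is unknown.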

Additional observations from a re-analysis of the deposited data

How the results depend on the processing

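No paired analysis was possible because the lists hold positions only, 1 list per target. Of 46 alternative values, 33 stayed within the interval or within 1.5 times the main count. Only the differences between groups could change sign, and 0 of them did. The contrasts by gene density were among those that stayed: gene-dense minus gene-poor bands gave -26.0 to -17.9 percentage points for the shared share of SPDEF peaks and 12.3 to 15.7 for carriers, among them without chromosomes 12, 14 and 20 and without bands whose length differs by over 10% between builds. Requiring 50% of both peaks to be covered gave 799 members, a median distance of 33.5 bp, a width difference from other SPDEF peaks of 71.0 bp, 26.8% of members on chromosomes 12, 14 and 20 and, by construction, 0 carriers with 2 SPDEF peaks. The wider 50% of each list gave 685 members, fewer by construction, with 114 bp, 3.29% of carriers with 2 or more, and 32.7% on the 3 chromosomes. With 50% of the SPDEF peak covered the distance was 77.5 bp and the width difference 24.0 bp, against 46.5 bp. Gaps of 5 and 25 kb put 23.2% and 31.3% of members in clusters. For the 13 values that moved the cause was not tested, apart from construction where stated. The low share of the middle part in GATA6 peaks of 500 to 800 bp was 9.17%. It was 8.70 to 10.9% without peaks under 100 bp or with shifted class bounds, which keep most of the same range. These, the contrasts by gene density and the removal of members with matching edges (1669 left, 93.0 bp) were chosen after seeing the data.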
